A study of Mus musculus with 6 samples.

Results

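Leukocyte adhesion molecules were followed in ischemic gastrocnemius muscle of GPR174-KO and wild-type (WT) mice. The 9 genes were taken by name from the cascade by which leukocytes leave the blood: the selectins Sele and Selp, the selectin ligand Selplg, the immunoglobulin-family ligands Icam1, Icam2 and Vcam1, and the integrin chains Itgam, Itgal and Itgb2. They are 9 of the 18089 genes in the deposited table. The estimated counts of all transcripts of a gene were summed to give its count in each library.

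The WT group was made up of 3 libraries and the GPR174-KO group of 3 libraries, each from C57BL/6 muscle taken 7 days after hindlimb ischemia (HLI). By the methods of the study the mice were males of 8 to 10 weeks, HLI was made by tying and excising part of the left femoral artery, and the knockout is a whole-body loss of the X-linked Gpr174 gene (Gpr174-/Y), so every cell type of the muscle carries it. All 6 muscles were ischemic, and uninjured muscle is not analysed here. The comparison asks which transcripts differ between the genotypes at day 7.

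Circulating leukocytes first roll on activated endothelium, where E-selectin (Sele) and P-selectin (Selp) bind P-selectin glycoprotein ligand (Selplg) on the leukocyte. Leukocyte integrins then bind ligands of the immunoglobulin family: the beta 2 chain (Itgb2) pairs with the alpha chain of LFA-1 (Itgal) or of Mac-1 (Itgam), and their counterreceptors ICAM-1 and ICAM-2 stand on endothelium, while VCAM-1 is bound by integrins that hold the alpha 4 chain. In injured muscle this route brings in neutrophils and then the monocytes that become macrophages, and VCAM-1 is also made by muscle progenitors and by some macrophages.

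Total counts were between 18417077 and 18695013 in the WT group and between 19173036 and 19394469 in the GPR174-KO group. CPM is a gene's count divided by the library total and scaled to a common size. The detection floor was taken as 3 counts, which covers counting error only. It is 0.155 to 0.163 CPM before the TMM scaling described next, and differs after it. In WT replicate 1, 3 counts of Sele are 0.187 TMM-scaled CPM. Levels are given as TMM-scaled CPM, that is CPM after edgeR's correction for library composition, and are comparable for 1 gene between libraries but not between genes. Values of single libraries are given in the order of replicates 1, 2 and 3. Gpr174 itself had 8, 2 and 5 counts in the WT libraries and 1, 0 and 0 in the GPR174-KO libraries, so the groups did not overlap and the GPR174-KO libraries, and WT replicate 2, were under the floor (edgeR without the low-count filter, adjusted p = 0.0176). In both groups replicate 2 lay between replicates 1 and 3 for most abundant genes, 82.3% (WT) and 73.5% (GPR174-KO) of the 5956 genes with a mean of at least 30 CPM. Nothing in the labels explains this order, so the tests below are also given on replicates 1 and 3 alone. The labels do not tie the samples to single mice, so p-values measure only the spread between these samples, which may be technical.

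Of the 9 adhesion genes, 8 were tested and 7 passed an adjusted p of 0.05 (edgeR quasi-likelihood test), where 54.6% of all 14395 tested genes did. Itgam, Itgb2, Vcam1, Icam1, Selplg and Itgal were higher in the GPR174-KO muscles, against 27.0% of all tested genes, and Icam2 was lower, against 27.6%. Itgam and Itgb2 also passed an absolute log2 fold change of 1, which 8.28% of all tested genes did. The median log2 fold change was 0.62 over the tested adhesion genes and 0.00 over all tested genes. Selp did not pass, and Sele was too low for the filter. The CPM of the groups did not overlap for 8 of the 9 genes, where 65.6% of all tested genes did not overlap. With so large a share of all genes past the threshold, the counts over the 9 genes say little on their own, and the sizes and library values below carry the description.

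**Figure D1:**
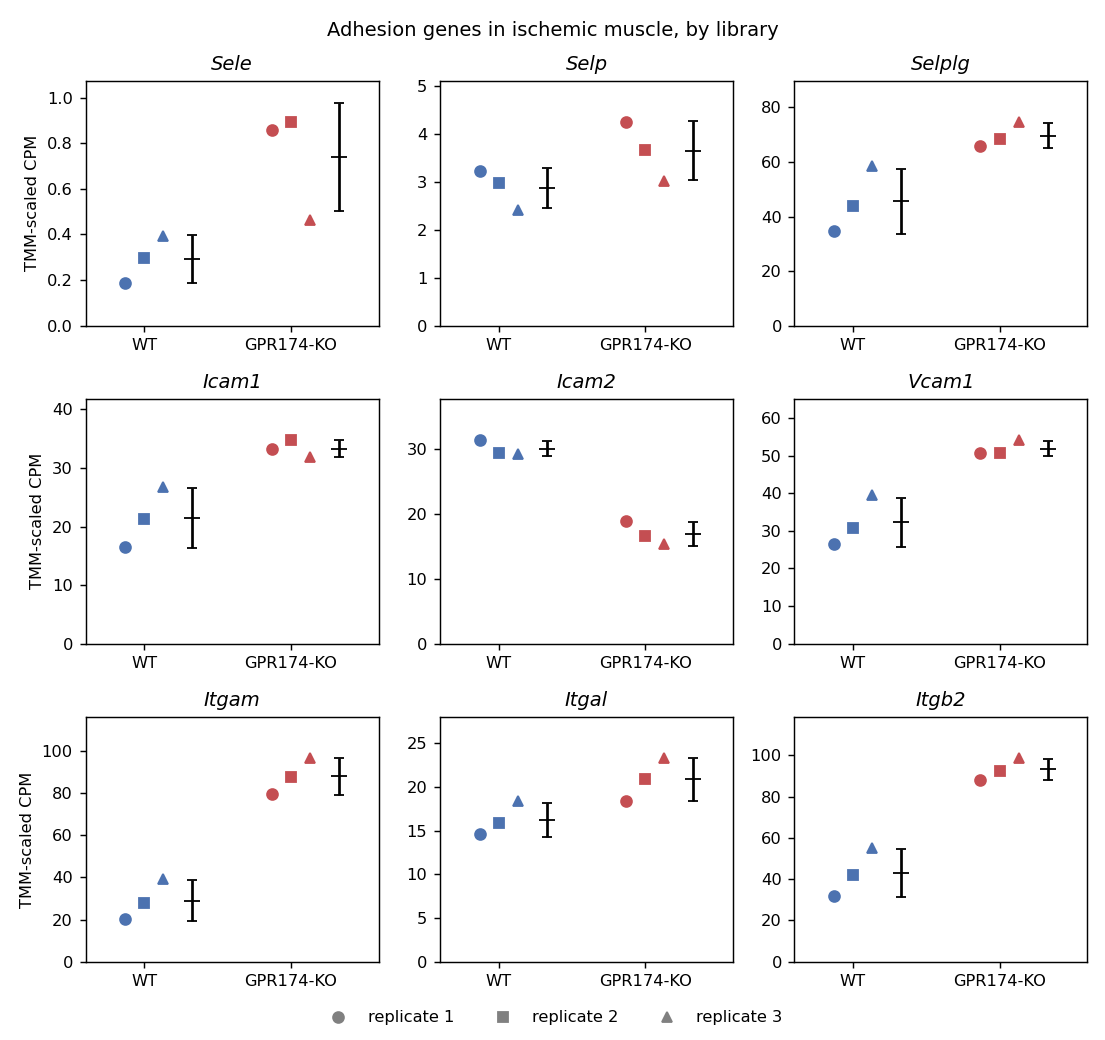
TMM-scaled CPM (vertical axes, linear and starting at 0, a scale of its own in each panel) of the 9 adhesion genes in each library. Circles, squares and triangles are replicates 1, 2 and 3 of the WT and GPR174-KO groups, and the black bar is the mean with 1 SD. The groups overlap for Selp alone, and Icam2 is the 1 gene with the GPR174-KO libraries below.

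With the libraries scaled to total counts in place of TMM, the median log2 fold change of all genes moved up by 0.27, and the share of calls that were higher in the GPR174-KO muscles went from 49.5% to 78.4%. The direction of each of the 8 tested adhesion genes was the same with both scalings, and all 8 passed with total counts, where 64.7% of all tested genes did. On replicates 1 and 3 alone no adhesion gene passed the adjusted threshold and 4 had an unadjusted p under 0.05. There Selplg had a log2 fold change of 0.59 (adjusted p = 0.172), Icam1 of 0.59 (0.146), Itgal of 0.34 (0.241) and Selp of 0.37 (0.409), and the others are given with each gene. In that smaller fit 0.0% of the 14447 tested genes passed, with 5026 at an unadjusted p under 0.05 (edgeR). Itgam, Itgb2, Vcam1 and Icam2 were the 4 adhesion genes that passed without WT replicate 2 (37.5% of all tested genes) and without GPR174-KO replicate 2 (38.0%).

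Sele encodes E-selectin, which activated endothelium makes and holds on its surface for leukocytes to roll on. It was the least abundant of the 9 genes, with 3, 5 and 7 counts in the WT libraries and 18, 19 and 10 counts in the GPR174-KO libraries. This is 0.187, 0.298 and 0.393 CPM against 0.860, 0.895 and 0.465 CPM. Each GPR174-KO library was above each WT library, though GPR174-KO replicate 3 was nearer to WT replicate 3 than to its own group. WT replicate 1 was at the floor of 3 counts. In the edgeR fit without the filter the log2 fold change was 1.31 (SE 0.40, 95% interval 0.39 to 2.24, adjusted p = 0.0302), a 2.48-fold difference. The call did not hold in the DESeq2 Wald test, where the adjusted p was 0.0868, nor without WT replicate 1 (0.0682) or WT replicate 2 (0.0843). In whole muscle a change in the number of cells that make a transcript and a change in RNA per cell cannot be told apart, and this holds for each gene that follows.

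The bases just before the start of transcription are shown for Sele because E-selectin is a textbook gene of cytokine-driven transcription and the window has a TATA box. The RefSeq promoter table holds 4 of the 9 genes (Sele, Selp, Icam1 and Itgam), and for each of these the 250 bases before the start are printed 5′ to 3′ from GRCm38.p6, plus strand. Capitals mark the letters matched by a search on both strands for TATAAA, for the kappaB form GGAATTTCC, for a longer kappaB form (GGG and TTCC with NNN between them), and for the STAT palindrome TTCCNGGAA. These motifs were chosen with the sequences in view. Only these exact letters were searched for, so other forms of the same sites are not marked. A window without a mark is not shown to lack such a site. In 32851 promoter windows of 27025 genes, TATAAA was found in 12.4%, GGAATTTCC in 0.286%, the longer kappaB form in 4.65% and TTCCNGGAA in 0.913%. For Sele, chr1:164047984-164048233, TATAAA lies 49 to 44 bases before the start.
Sele: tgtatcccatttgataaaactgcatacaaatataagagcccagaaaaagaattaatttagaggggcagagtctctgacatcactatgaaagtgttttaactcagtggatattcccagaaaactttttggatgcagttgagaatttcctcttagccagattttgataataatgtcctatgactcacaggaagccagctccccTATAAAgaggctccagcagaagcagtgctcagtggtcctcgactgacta

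Selp encodes P-selectin, stored in granules of platelets and endothelial cells and moved to the surface on activation. It had 52, 50 and 43 counts in the WT libraries and 89, 78 and 65 in the GPR174-KO libraries, or 3.24, 2.98 and 2.42 CPM against 4.25, 3.67 and 3.02 CPM. GPR174-KO replicate 3 lay below WT replicate 1, so the groups overlapped. The log2 fold change was 0.35 (SE 0.18, 95% interval -0.07 to 0.76, edgeR adjusted p = 0.135), and the interval of the fold, 0.952 to 1.70, does not show that the groups are alike. Scaling decided this call: with total counts the log2 fold change was 0.62 (adjusted p = 0.0118), and limma on log2(FPKM + 1) gave 0.30 (adjusted p = 0.0146). The Selp window, chr1:164115014-164115263, is shown beside that of Sele as that of the other endothelial selectin, and none of the searched motifs was found in it.
Selp: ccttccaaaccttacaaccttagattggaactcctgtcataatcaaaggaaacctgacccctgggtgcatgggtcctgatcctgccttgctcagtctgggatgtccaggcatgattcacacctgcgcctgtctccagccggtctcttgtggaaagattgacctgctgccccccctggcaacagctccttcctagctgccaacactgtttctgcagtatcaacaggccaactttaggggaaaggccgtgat

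Selplg encodes P-selectin glycoprotein ligand, the leukocyte counterpart of the selectins. Its level was 34.8, 43.7 and 58.4 CPM in the WT libraries and 65.8, 68.6 and 74.7 CPM in the GPR174-KO libraries. The GPR174-KO libraries were all above the WT libraries, with WT replicate 3 nearest to them. The WT mean was 45.6 ± 11.9 CPM (SD, n = 3) and the GPR174-KO mean 69.7 ± 4.58 CPM (SD, n = 3). Selplg had a log2 fold change of 0.61 (SE 0.17, 95% interval 0.20 to 1.02, edgeR adjusted p = 0.0227), a 1.53-fold rise. The call was lost without WT replicate 2 (adjusted p = 0.0775) and without GPR174-KO replicate 1 (0.0517), 2 (0.0601) or 3 (0.0780).

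Icam1 encodes ICAM-1, the inducible ligand of the beta 2 integrins. It had 265, 358 and 476 counts in the WT libraries and 696, 739 and 686 in the GPR174-KO libraries, or 16.5, 21.3 and 26.7 CPM against 33.3, 34.8 and 31.9 CPM. The WT libraries spread widely (coefficient of variation 23.9%) and all lay below the GPR174-KO libraries, which lay close together (4.34%). Icam1 had a log2 fold change of 0.63 (SE 0.16, 95% interval 0.25 to 1.00, edgeR adjusted p = 0.0142), a 1.55-fold rise. The call was lost without WT replicate 2 (adjusted p = 0.0513) and without GPR174-KO replicate 2 (0.0517). The table lists 1 transcript of Icam1, so no reads were divided among isoforms. Its window, chr9:21015690-21015939, is shown because it holds a kappaB form and a STAT palindrome. GGAAATTCC, which is GGAATTTCC read on the minus strand, lies 153 to 145 bases before the start and TTCCCGGAA 42 to 34 bases before it. The matches are letters in a sequence and no measure of binding.
Icam1: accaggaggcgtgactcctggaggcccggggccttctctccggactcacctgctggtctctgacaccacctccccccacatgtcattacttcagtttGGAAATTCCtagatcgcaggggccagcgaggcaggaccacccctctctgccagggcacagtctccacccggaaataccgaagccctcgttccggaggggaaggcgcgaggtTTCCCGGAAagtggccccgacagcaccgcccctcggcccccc

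Vcam1 encodes VCAM-1, the ligand of alpha 4 integrins. Its level was 26.5, 30.7 and 39.4 CPM in the WT libraries and 50.7, 50.6 and 54.2 CPM in the GPR174-KO libraries. The pattern was that of Icam1, with WT replicate 3 nearest to the GPR174-KO group, no overlap, and a coefficient of variation of 20.5% in the WT and 3.93% in the GPR174-KO group. Vcam1 had a log2 fold change of 0.68 (SE 0.14, 95% interval 0.36 to 1.01, edgeR adjusted p = 0.00586), a 1.61-fold rise. Vcam1 kept an adjusted p under 0.05 whichever single library was left out, and on replicates 1 and 3 alone the log2 fold change was 0.67 (adjusted p = 0.0876). Vcam1 too has 1 listed transcript. Itga4, which encodes the alpha 4 chain of its receptors, had a mean of 38.7 CPM in the WT and 61.1 CPM in the GPR174-KO group. It passed the test (log2 fold change 0.66, SE 0.11, edgeR adjusted p = 0.00354). Of the beta chains that pair with it, Itgb7 passed too (0.71, SE 0.10, adjusted p = 0.00220). Itgb1, at a mean of 592 CPM against 7.10 CPM for Itgb7, did not pass (0.21, SE 0.11, adjusted p = 0.146), and its groups overlapped.

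Icam2 encodes ICAM-2, which resting endothelium carries at its junctions and which inflammation does not induce. It was the 1 adhesion gene that fell. It had 506, 496 and 522 counts in the WT libraries and 398, 353 and 330 in the GPR174-KO libraries, or 31.5, 29.5 and 29.3 CPM against 19.0, 16.6 and 15.3 CPM. The WT libraries were close together (coefficient of variation 3.96%) and well above the GPR174-KO libraries. This was a log2 fold change of -0.82 (SE 0.09, 95% interval -1.03 to -0.62, edgeR adjusted p = 0.000981), or 0.565 of the WT level. It kept its direction with total counts (-0.55), and on replicates 1 and 3 alone its log2 fold change was -0.82 (adjusted p = 0.0542). Reads of Icam2 were divided among 5 listed transcripts. The most abundant one, a computer-predicted model, held 84.6%, 84.3% and 86.7% of the counts in the WT libraries and 72.1%, 72.6% and 79.7% in the GPR174-KO libraries, while the curated transcript held 8.58%, 10.5% and 9.98% against 21.8%, 19.7% and 13.2%. These shares are estimates from reads that fit several transcripts and were not tested.

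**Figure D2:**
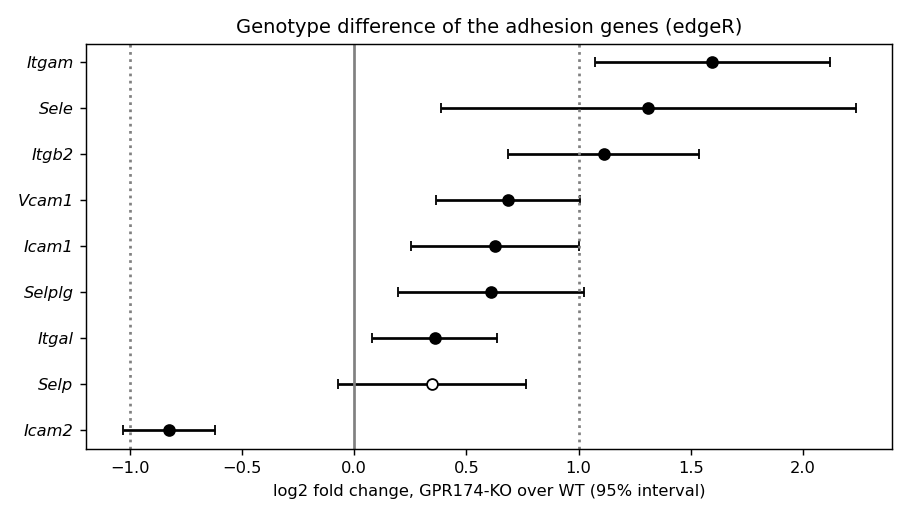
Log2 fold change of GPR174-KO over WT (horizontal axis) with its 95% interval from edgeR for each of the 9 adhesion genes. Filled points passed an adjusted p of 0.05, the open point (Selp) did not, the value of Sele is from the fit without the low-count filter, and dotted lines mark a log2 fold change of 1 in either direction. Itgam is highest at 1.60 and Icam2 lowest at -0.82.

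Itgam encodes CD11b, the alpha chain of Mac-1, carried by monocytes, macrophages and neutrophils. It had 322, 469 and 695 counts in the WT libraries and 1662, 1859 and 2079 in the GPR174-KO libraries, or 20.04, 27.9 and 39.1 CPM against 79.4, 87.5 and 96.7 CPM. The lowest GPR174-KO library was far above the highest WT library. Itgam had a log2 fold change of 1.60 (SE 0.22, 95% interval 1.07 to 2.12, edgeR adjusted p = 0.00180), a 3.02-fold rise with an interval of 2.10 to 4.34. It was the largest fold of the 9 genes. Itgam kept an adjusted p under 0.05 whichever single library was left out, with log2 fold changes of 1.40 to 1.88, and gave 1.57 on replicates 1 and 3 alone (adjusted p = 0.0587). The Itgam window, chr7:128062390-128062639, is shown as that of the gene with the largest rise, and none of the searched motifs was found in it.
Itgam: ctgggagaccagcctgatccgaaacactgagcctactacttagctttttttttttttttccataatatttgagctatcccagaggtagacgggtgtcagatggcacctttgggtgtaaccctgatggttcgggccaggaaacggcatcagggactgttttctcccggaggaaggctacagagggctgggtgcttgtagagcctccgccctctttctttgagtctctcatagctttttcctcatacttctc

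Itgb2 encodes CD18, the beta 2 chain shared by LFA-1, Mac-1 and the other CD11 integrins. Its level was 32.0, 41.9 and 55.2 CPM in the WT libraries and 88.3, 92.6 and 98.8 CPM in the GPR174-KO libraries. The groups were far apart, and WT replicate 3 was again the nearest. Itgb2 had a log2 fold change of 1.11 (SE 0.18, 95% interval 0.69 to 1.54, edgeR adjusted p = 0.00288), a 2.16-fold rise. It passed the test whichever single library was left out and gave 1.10 on replicates 1 and 3 alone (adjusted p = 0.0679). Of 4 listed transcripts the curated one held 73.9%, 82.4% and 77.6% of the counts in the WT libraries and 93.5%, 90.8% and 92.4% in the GPR174-KO libraries, which was not tested.

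Itgal encodes CD11a, the alpha chain of LFA-1, which lymphocytes carry in addition to myeloid cells. It had 234, 266 and 327 counts in the WT libraries and 385, 443 and 501 in the GPR174-KO libraries, or 14.6, 15.8 and 18.4 CPM against 18.4, 20.9 and 23.3 CPM. WT replicate 3 and GPR174-KO replicate 1 met at 18.4 CPM, so the groups were apart by almost nothing. The log2 fold change was 0.36 (SE 0.12, 95% interval 0.08 to 0.64, edgeR adjusted p = 0.0378), a 1.28-fold rise. The call was lost without WT replicate 1 (adjusted p = 0.0853) or 2 (0.115) and without GPR174-KO replicate 2 (0.0968) or 3 (0.114). The split among its 3 listed transcripts was unstable, with all counts of WT replicate 1 on a transcript that held 12.1% to 32.2% in the other libraries, so Itgal is reported as a whole gene.

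Across genes, levels were compared as FPKM, which is corrected for transcript length. In the WT group Icam2 (mean 24.7 FPKM) and Selplg (22.9 FPKM) stood highest, followed by Itgb2 (14.1 FPKM), Vcam1 (8.80 FPKM), Icam1 (7.79 FPKM), Itgam (5.75 FPKM), Itgal (2.88 FPKM), Selp (0.767 FPKM) and Sele (0.0800 FPKM). From Icam2 down to Itgam each neighbouring pair of genes had overlapping ranges over the 3 libraries, and Icam2 was above Selplg in 2 of the 3. In the GPR174-KO group the order was Selplg (41.9 FPKM), Itgb2 (36.4 FPKM), Itgam (20.9 FPKM), Vcam1 (17.0 FPKM), Icam2 (16.6 FPKM), Icam1 (14.5 FPKM), Itgal (4.45 FPKM), Selp (1.18 FPKM) and Sele (0.243 FPKM). There the ranges of Selplg and Itgb2 overlapped, and so did those of Vcam1 and Icam2. Itgam moved from the sixth place to the third and Icam2 from the first to the fifth.

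The beta 2 chain has 4 alpha partners, Itgal, Itgam, Itgax and Itgad, and their FPKM can be set beside that of Itgb2 in each library. Their sum was 10.8, 14.0 and 18.7 FPKM in the WT libraries and 36.2, 40.1 and 44.9 FPKM in the GPR174-KO libraries. This was between 99.8% and 107.9% of Itgb2 in the WT libraries and between 107.2% and 114.1% in the GPR174-KO libraries. Itgam held 34.8%, 38.8% and 43.0% of the alpha sum in the WT libraries and 51.1%, 51.7% and 52.2% in the GPR174-KO libraries. Itgal went the other way, with 22.6%, 19.7% and 18.3% against 10.7%, 11.1% and 11.3%. Itgax, the alpha chain of CD11c/CD18 on dendritic cells and macrophages, held 38.3% to 41.9% against 36.4% to 37.9%, and Itgad under 1% in each library. Itgam, Itgax and Itgad are neighbours on their chromosome. Itgax rose (log2 fold change 1.12, SE 0.12, edgeR adjusted p = 0.00110), and Itgad was under the filter.

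**Figure D3:**
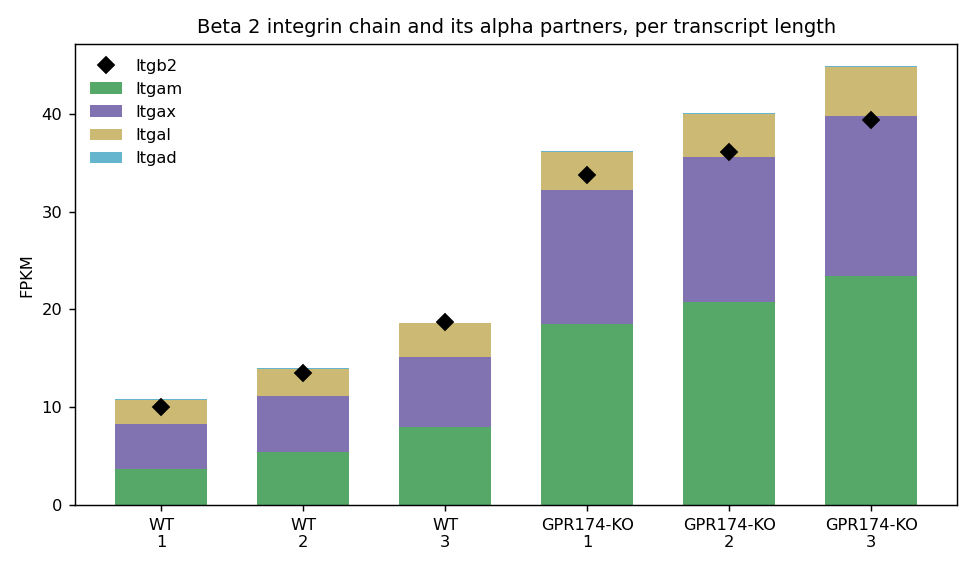
FPKM (vertical axis, linear from 0) of the 4 alpha partners of the beta 2 chain, stacked, in each of the 6 libraries, with Itgb2 as a black diamond. Itgam makes up 34.8% to 43.0% of the stack in the WT libraries and 51.1% to 52.2% in the GPR174-KO libraries.

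Ratios of counts within a library do not depend on how libraries are scaled to each other. The count ratio of Itgam to Itgal was 1.38, 1.76 and 2.13 in the WT libraries and 4.32, 4.20 and 4.15 in the GPR174-KO libraries, a mean log2 difference of 1.29. Itgam over Itgb2 rose by 0.50 on the log2 scale and Itgal over Itgb2 fell by 0.79. In each of these 3 ratios the groups did not overlap. For the 12 planned ratios, these 3 and the 9 in which each adhesion gene is set beside endothelial or pan-leukocyte markers, and for the 6 added after seeing the data, a 2-sided exact permutation test gave p = 0.1, the smallest that 3 samples against 3 allow, and 0.1 after adjustment. This design therefore cannot reach 0.05 for a ratio. How many of all genes would give ratios without overlap was not computed. The summed endothelial and pan-leukocyte markers did not themselves overlap between groups. A count of ratios without overlap therefore says little about the adhesion genes.

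The muscles also differed in their cell type markers. Each count of markers called higher or lower stands beside 27.0% higher and 27.6% lower over all tested genes. All 11 endothelial markers were lower in the GPR174-KO muscles, with a median log2 fold change of -0.76 and a summed level of 1293 to 1463 CPM in the WT against 810.0 to 910.9 CPM in the GPR174-KO libraries. With total-count scaling Eng stood at a log2 fold change of 0.00, and the other 10 had a negative one. Cdh5 (log2 fold change -0.82) and Pecam1 (-0.63) are the most abundant of them. Of 10 pan-leukocyte markers 9 were higher, with a median of 0.81, and their sum was 518.8 to 903.9 CPM against 1225 to 1313 CPM. Laptm5 (0.85) and Lcp1 (1.04) lead that list. All 9 monocyte and macrophage markers were higher, with a median of 0.77, among them Lyz2 (1.00) and C1qb (0.70). All 12 mature fibre markers were abundant in each library, as the muscle label says, and all 12 were lower in the GPR174-KO muscles, from 12.4% to 16.0% of all counts to 6.45% to 6.95%. The fibre list is led by Acta1 (-1.15) and Myh4 (-1.49).

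Of 3 tested neutrophil markers 2 were higher and 1 lower. Their list's sum was 22.5 to 29.1 CPM in the WT and 33.4 to 36.7 CPM in the GPR174-KO libraries, with most of it from Csf3r (log2 fold change 0.63) and Cxcr2 (-0.57), while the defining markers Ly6g, Camp and Ngp had at most 3 counts in each library. Mmp8, a neutrophil collagenase under 1 CPM on average, had 3, 2 and 3 counts in the WT libraries and 21, 25 and 29 in the GPR174-KO libraries (edgeR adjusted p = 0.000888). Other low neutrophil markers did not show this. S100a8 had 7, 10 and 7 counts against 4, 10 and 15, and S100a9 had 12, 5 and 5 against 10, 4 and 4. These 2 genes and Retnlg were under the filter, and their groups overlapped. The lymphocyte sum overlapped between groups, with 0 of 9 tested markers higher and 2 lower, and its most abundant genes Cd4 (0.43, edgeR adjusted p = 0.113) and Nkg7 (-0.57, adjusted p = 0.121) did not pass. Of 3 tested platelet markers Pf4 was higher (1.38) and Gp1ba lower (-0.77), and Gp9 had at most 3 counts in each library. Of 8 satellite cell and myoblast markers 5 were higher and none lower, though their sums overlapped, and the most abundant, Myh3 (0.85, adjusted p = 0.124) and Myh8 (0.20, adjusted p = 0.412), did not pass. Of 8 fibroblast markers 3 were higher and 4 lower, with a median log2 fold change of -0.09. The higher ones were the 2 most abundant, Col1a1 (0.87) and Col3a1 (0.56), and Col1a2 (0.79). The lower ones were Pi16 (-1.12), Lum (-0.81), Dcn (-0.57) and Pdgfra (-0.21). In each of the 9 marker lists WT replicate 3 was the WT library nearest to the GPR174-KO group, as it was for 8 of the 9 adhesion genes. The part of these shifts in the adhesion genes was not tested. The ratios that follow set each adhesion gene beside the markers of the same library.

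Each of these genes was taken as a percent of the summed endothelial marker counts of the same library. Icam2 took a slightly smaller share in the GPR174-KO muscles, and the selectins, Icam1 and Vcam1 a larger one. Icam2 was 2.15%, 2.12% and 2.27% in the WT libraries and 2.09%, 1.92% and 1.90% in the GPR174-KO libraries. The mean log2 difference was -0.15, with an SD of 0.05 in the WT and 0.08 in the GPR174-KO group. The log2 fold change of its level was -0.82, and the cause of either difference was not tested. Icam1 was 1.13%, 1.53% and 2.07% against 3.65%, 4.02% and 3.94%, a log2 difference of 1.34. Vcam1 was 1.81%, 2.201% and 3.05% against 5.57%, 5.84% and 6.69%, a log2 difference of 1.39. Selp, not called by its level, was 0.221%, 0.213% and 0.187% against 0.467%, 0.424% and 0.373%, a log2 difference of 1.02. The groups did not overlap for any of these, nor for Sele, with a log2 difference of 2.03. With the mean log2 CPM of the markers in place of their sum the Icam2 groups overlapped (log2 difference -0.13), and those of the other 4 genes did not.

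Icam1 and Vcam1 are not endothelial alone, and against another reference their direction turned. Relative to the pan-leukocyte markers, a comparison chosen after seeing the data, Icam1 was 3.18%, 3.16% and 2.96% in the WT libraries and 2.72%, 2.77% and 2.43% in the GPR174-KO libraries, a log2 difference of -0.23. Vcam1 was 5.11%, 4.55% and 4.36% against 4.14%, 4.03% and 4.13%, a log2 difference of -0.19. Both thus rose less than the leukocyte markers while the endothelial markers fell.

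The leukocyte genes were set beside the pan-leukocyte markers. Itgam was 3.86%, 4.14% and 4.32% of their summed counts in the WT libraries and 6.48%, 6.97% and 7.37% in the GPR174-KO libraries, a log2 difference of 0.76. Itgb2 was 6.18%, 6.21% and 6.11% against 7.21%, 7.37% and 7.52%, a log2 difference of 0.26 between groups that each varied by little. Selplg was 6.71%, 6.48% and 6.47% against 5.37%, 5.46% and 5.70%, a log2 difference of -0.25, and Itgal 2.81%, 2.35% and 2.03% against 1.50%, 1.66% and 1.78%, a log2 difference of -0.53. So Itgam and Itgb2 rose by more, and Selplg and Itgal by less, than the leukocyte markers taken as a sum. With the mean log2 CPM of the markers in place of their sum, the differences were 0.80 for Itgam, 0.30 for Itgb2, -0.20 for Selplg and -0.49 for Itgal. With macrophage markers as the reference, also chosen after seeing the data, the 4 differences were 0.75, 0.25, -0.26 and -0.54 in the same order of genes.

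**Figure D4:**
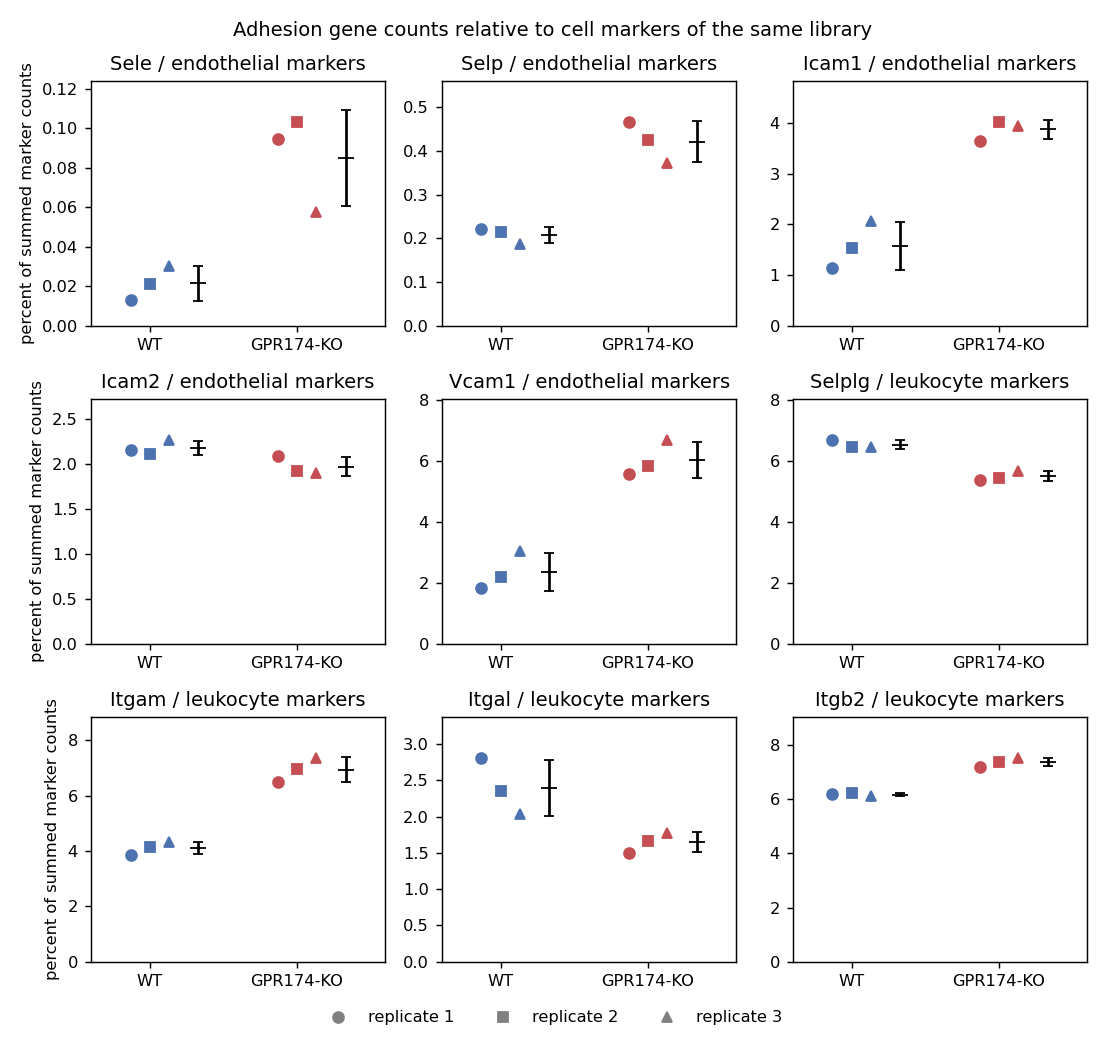
Counts of each adhesion gene as a percent of the summed counts of endothelial or pan-leukocyte markers in the same library (vertical axes, linear from 0, a scale of its own in each panel). Circles, squares and triangles are replicates 1, 2 and 3, and the black bar is the mean with 1 SD. The groups do not overlap in any of the 9 panels, and Icam2, Selplg and Itgal are lower in the GPR174-KO libraries. The share of all genes without such an overlap was not computed.

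The other genes of the cascade were counted from lists. Of 14 tested selectin ligands and the enzymes that glycosylate them, 8 were higher and 4 lower (median log2 fold change 0.42). Gcnt1, which builds the core 2 branch that P-selectin ligand needs, rose (1.30, SE 0.15, edgeR adjusted p = 0.00120), as did Cd44, an E-selectin ligand and hyaluronan receptor (1.12, SE 0.16, adjusted p = 0.00187). St3gal6, a sialyltransferase of selectin ligands (-1.66, SE 0.20, adjusted p = 0.00130), and Cd24a (-1.28, SE 0.15, adjusted p = 0.00124) fell. St3gal4, another sialyltransferase of the list, rose (0.70, SE 0.09, adjusted p = 0.00148).

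Of 15 tested junctional and immunoglobulin-family adhesion genes, 6 were higher and 7 lower (median -0.22). Those that fell most were Cd99l2 (-0.83) and Esam (-0.82), which act at endothelial junctions during transmigration, and those that rose most were Alcam (1.43) and Sirpa (0.97), a myeloid receptor of CD47. The fall of several of the 7 lower genes depended on scaling. With total counts F11r changed sign, to 0.05, and Jam2 (-0.004), Mcam (-0.02) and Nectin2 (-0.10) came close to 0. Cd99l2 (-0.56), Esam (-0.54) and Pecam1 (-0.35) kept a larger fall. The genes next to Icam1, Icam4 and Icam5, are of its family, and Icam5 did not pass (0.83, edgeR adjusted p = 0.0757) while Icam4 was under the filter.

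Of 11 other integrin chains tested, 6 were higher and 1, Itgae, lower (median 0.44, with Itgae at -0.52). Of 19 cytoplasmic regulators of leukocyte integrins 14 were higher and 2 lower (median 0.56). The list holds activators and also the inhibitors Sharpin, which fell, and Cytip, which rose (0.56, edgeR adjusted p = 0.00855), so the count gives no direction of integrin activation. Among these genes Fgr (1.10, SE 0.23) and Vav1 (1.04, SE 0.19), kinase and exchange factor downstream of beta 2 integrins, rose, and Rasgrp2 (-1.07, SE 0.12), an exchange factor that switches on Rap1, and Sharpin (-0.33, SE 0.05) fell.

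Of 6 genes of the proteases that shed adhesion molecules and their cofactors, 4 were higher and none lower (median 0.39). Adam8, a myeloid sheddase, rose from 29.1 ± 13.2 CPM (SD, n = 3) to 99.8 ± 4.57 CPM (SD, n = 3), a log2 fold change of 1.77, and Adam9 by 0.52. Of 14 cytokine, receptor and NF-kappaB pathway genes 9 were higher and 1 lower (median 0.30). The list holds the NF-kappaB inhibitors Tnfaip3, which rose (0.31, edgeR adjusted p = 0.0115), and Nfkbia, which did not pass (0.16, adjusted p = 0.154). Il1r1, the interleukin-1 receptor, rose (1.38, SE 0.16, edgeR adjusted p = 0.00119) with GPR174-KO libraries at 74.2 ± 0.112 CPM (SD, n = 3) and WT libraries at 28.4 ± 7.03 CPM (SD, n = 3). Il1b rose as well (1.34, SE 0.26, adjusted p = 0.00560) at a low level of 0.843 ± 0.195 CPM (SD, n = 3) in the WT and 2.16 ± 0.533 CPM (SD, n = 3) in the GPR174-KO group. Il1a, the 1 lower gene of the list, went the other way (-0.80, SE 0.23, adjusted p = 0.0277). Its level was also low, 0.911 ± 0.114 CPM (SD, n = 3) in the WT and 0.519 ± 0.0989 CPM (SD, n = 3) in the GPR174-KO group. The shares of called genes in these lists stand beside 54.6% over all tested genes, with 27.0% higher and 27.6% lower.

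**Figure D5:**
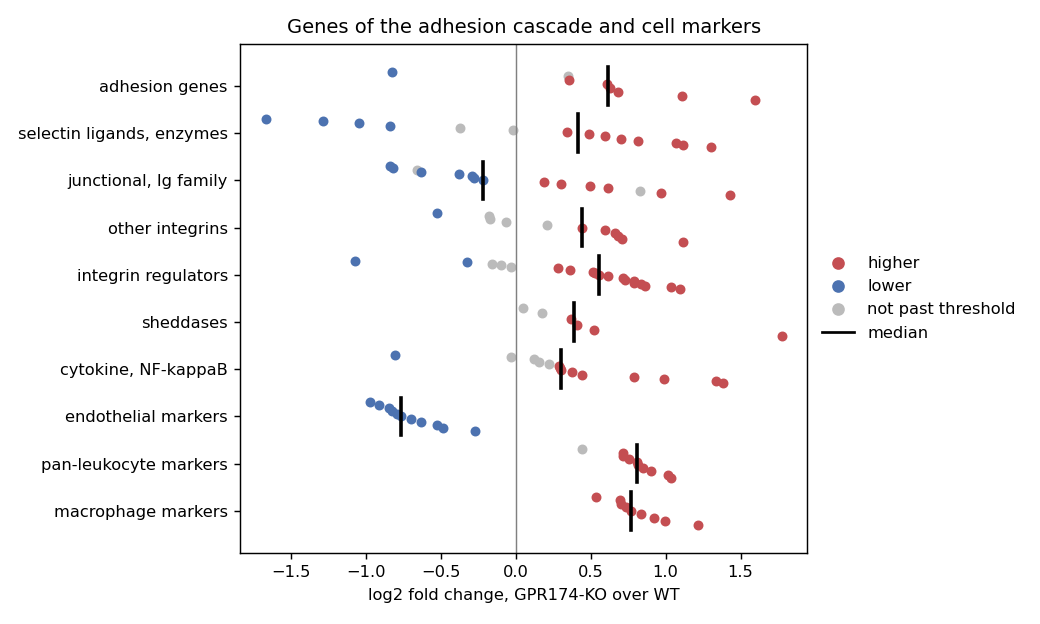
Log2 fold change of GPR174-KO over WT (horizontal axis) of each tested gene of the adhesion genes, 6 other cascade lists and 3 marker lists. Red points passed an adjusted p of 0.05 upward, blue points downward, grey points did not pass, and the black line is the list's median. All 11 endothelial markers lie below 0 and all 9 macrophage markers above it, while the adhesion genes lie on both sides.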

How the data were processed

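Total RNA of ischemic gastrocnemius was sequenced in 3 WT and 3 GPR174-KO samples. The labels name an Illumina kit and the methods a BGISEQ platform, and strand use is not given in the sources used here. The submitters' processing notes list HISAT2 2.0.4, Bowtie2 2.2.5, RSEM 1.2.12 and GRCm39. The authors deposited 1 table with 58843 RefSeq transcripts as rows, which gives for each library expected counts (reads assigned to a transcript by an estimate, not normalized), FPKM and TPM. The deposited TPM and the group means were not used. FPKM as given by the authors was summed over a gene's transcripts to compare genes.

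Expected counts were summed by gene and rounded. Of 18089 genes 18034 had a count and 99.7% received a symbol, and 96.8% of transcripts were found in the RefSeq table of GRCm38.p6, from which names, neighbours and promoter windows were taken but no gene coordinates. Groups were compared with edgeR 4.0.16 in R 4.3.3 (low-count filter, TMM, robust quasi-likelihood test, Benjamini-Hochberg adjustment) rather than the DEGseq of the methods, with the study's thresholds of 0.05 and a log2 fold change of 1. Common dispersion was 0.00967 and the median prior degrees of freedom 2.84. Sele and Gpr174 come from the fit without the filter. limma 3.58.1 and DESeq2 1.42.0 gave alternatives, and Python 3.11.15 with scipy 1.17.1 the permutation tests. Data were simulated with 200 changed genes, split evenly between a log2 fold change of 1 and a smaller one. There edgeR recovered 99 genes with a log2 fold change of 1 and 58 with the smaller one. It made 4 false calls. Far fewer genes were changed there than passed in the real data, so the simulation does not show how the test does at such a share. Genes of low count were not among the changed ones. All genes were drawn independently with the same dispersion, so the order of replicates seen in the real libraries was not simulated.

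The members and gene lists were chosen with earlier results of these data known. Named genes were all members, Gpr174, the 2 most abundant genes of each marker list and, of each other list, up to 2 called genes with the largest rise and fall at a mean of at least 1 CPM. Itga4, Eng, F11r, Icam4, Icam5, Itgad, Cytip, Tnfaip3, Nfkbia, Mmp8, Ly6g, Camp, Ngp and Gp9 were named after their values were seen. So were Itgb1, Jam2, Mcam, Nectin2, Il1a, St3gal4, Col1a2, Pi16, Lum, Dcn, Pdgfra, S100a8, S100a9 and Retnlg.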

Additional observations from a re-analysis of the deposited data

How the results depend on the processing

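Under 16 alternatives (5 for Sele) each adhesion gene kept its direction of level. The number past the adjusted threshold was 7 with DESeq2 size factors (54.5% of all genes tested), the DESeq2 Wald test (41.4%), limma voom (54.7%), a minimum of 10 counts (55.7%) and the replicate block (47.3%), and 8 with total counts (64.7%), no filter (43.9%) or FPKM with a pseudocount of 1 (69.0%) or 0.1 (68.8%). Leaving out 1 library gave 4 to 8 adhesion genes past the adjusted threshold and 1 to 3 past both thresholds, where the full data gave 7 and 2, and over all genes 5457 to 9165 against 7863 and 924 to 1826 against 1192. Without WT replicate 1 only 1 adhesion gene was past both, and without WT replicate 3 all genes past both numbered 1826. On replicates 1 and 3 alone all 4 of these counts were 0 (edgeR), with 4 adhesion genes and 5026 of all genes at an unadjusted p under 0.05, and the smallest adjusted p was 0.0542. With limma on log2(FPKM + 1) 645 genes passed both thresholds. Relative to leukocyte in place of endothelial markers the log2 differences of Icam1 (-0.23) and Vcam1 (-0.19) were reversed; the cause was not tested. With the mean log2 CPM of markers in place of their sum, 8 of 9 adhesion genes had no overlap between groups, where the sum gave 9. The matching share of all genes was not computed for either.

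The replicate block left 7 adhesion genes called and 2 past both thresholds, with 6812 and 1139 of all genes, and changed no call of an adhesion gene. Same-numbered libraries did not deviate together (correlations 0.0163, -0.0281 and -0.0084), and the labels do not pair them. Sele, with 3 to 19 counts, is limited by depth.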
